A study of Caenorhabditis elegans with 35 samples.

Results

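The insulin-like peptide (ILP) genes ins-7, ins-12, ins-25, ins-27, ins-29, ins-35 and daf-28 were examined in whole Caenorhabditis elegans larvae of 7 genotypes. The members were the ILP genes whose locus, one of 37555 in the deposited table, was named for them and had a measurable level. ins-25, ins-27 and ins-29 were counted together as 1 locus, so these 7 of the 40 ILP genes named in the table gave 5 loci, and all 5 were among the 1101 loci that could be tested. Each genotype had 5 libraries, numbered 6 to 10, and the 35 libraries came from larvae at the L2 or L2d stage. More than 200 adults laid eggs over 6 h at 20°C, and the eggs were moved to 25°C, a temperature that favors dauer arrest. The larvae were collected 24 h after this move. The genotypes were wild type, the double mutant eak-7;akt-1 and 5 triple mutants, each named below by its added mutation: eak-7;akt-1;daf-12 (the daf-12 strain), set-4(n4600);eak-7;akt-1 (the set-4(n4600) strain), set-4(dp268);eak-7;akt-1 (the set-4(dp268) strain), daf-16;eak-7;akt-1 (the daf-16 strain) and, lastly, eak-7;akt-1 dpy-21 (the dpy-21 strain). Every strain other than wild type carried the eak-7 and akt-1 mutations. eak-7;akt-1 animals arrest as dauers in this setting and pass through the predauer stage L2d, whereas the added mutations suppress arrest, so genotype and developmental course cannot be told apart in these samples. set-4(n4600) is a deletion and set-4(dp268) a point mutation in the SET domain of the same gene. The labels name no allele for the other genes, and every library was made from whole animals.

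Insulin-like peptides are secreted ligands of the insulin/IGF receptor DAF-2. An agonist ILP activates DAF-2 and, through PI3K and AKT-1, keeps the transcription factor DAF-16/FoxO out of the nucleus, which favors reproductive growth. An antagonist has the opposite action, and low DAF-2 signaling lets DAF-16 promote dauer arrest. The nuclear hormone receptor DAF-12 reads the steroid signal that follows, whereas SET-4 and DPY-21 act on histone H4 lysine methylation and X-chromosome dosage compensation. ILP genes are known for expression in sensory neurons, the intestine and other tissues, and several respond to food, temperature and DAF-16 itself.

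The genes lie at separate positions in the WBcel235 annotation, on the build named in the submitters' notes. ins-7 spans chromosome IV, 9682011 to 9682845, on the minus strand, and its 2 annotated transcripts are 370 and 395 nt long. ins-12 spans chromosome II, 5554617 to 5555361, with 1 transcript of 328 nt. ins-29, ins-25 and ins-27 sit in this order on the plus strand of chromosome I, at 14018799 to 14019759, 14020361 to 14021312 and 14027236 to 14027588, with transcripts of 333, 379 and 310 nt. ins-35 spans chromosome V, 20375536 to 20376302, with 1 transcript of 382 nt, and daf-28 lies on the same chromosome, 19815133 to 19816454, with transcripts of 641 to 752 nt. Both are on the plus strand, as is ins-12, and each of the 7 genes has 2 or 3 exons.

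The values were scaled counts, that is, fragments per locus divided by a size factor of the library, and 1 fragment could be recovered from the steps between values. The table held 34193 to 88068 fragments per library (median 56780), and 8710 loci had a fragment in some library. Loci passed the filter at different rates by transcript length. Of the loci that hold 1 protein-coding gene, the filter kept 6.93% where the transcript was 1 to 300 nt, 18.1% at 351 to 400 nt and 2.01% at 801 to 1000 nt. What set these rates was not tested. At this depth, low values of long genes say little about their expression. The mutated genes had too few fragments to serve as a check of the labels: daf-12 had 21 fragments over all 35 libraries, daf-16 had 9, akt-1 had 4, eak-7 (with its neighbor hsb-1) had 3, set-4 had 1 and dpy-21 had 0. In whole animals, fewer cells of a type and less RNA per cell cannot be told apart.

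Libraries fell into 2 groups that cut across the genotypes. The first principal component of the tested loci, computed without the 5 ILP loci, took 39.8% of the variance and split off 9 libraries from 26, with a gap of 0.238 where the next largest was 0.0372. The smaller group held wild type 7 and 10, eak-7;akt-1 6 and 10, daf-12 7, set-4(n4600) 7, daf-16 10 and dpy-21 6 and 9, and none of the set-4(dp268) strain. In it 3 of the 5 ILP loci were lower. Averaged within genotypes, the smaller group minus the larger group was -5.74 for ins-35, -2.91 for daf-28 and -1.78 for ins-7 on the log2(scaled count + 1) scale, against -0.18 for the ins-25/ins-27/ins-29 locus and 0.45 for ins-12. Other loci differed between the groups by transcript length. Of 51 other single-gene loci with a longest transcript of 351 to 400 nt, 49.0% were lower by more than 2 on that scale (median -1.86), against 5.88% of 34 loci at 301 to 350 nt (median 0.01) and none of 32 loci at 801 to 1000 nt. ins-35 and ins-7 belong to the first of these length classes and ins-12 to the second, whereas daf-28 belongs to 601 to 800 nt, where 23.3% of 30 loci were lower by more than 2. What set the 2 groups apart was not tested. Results are therefore given over all 35 libraries, over the 26 of the larger group or over both, as named beside each value. The larger group held 3 wild-type, 3 eak-7;akt-1, 4 daf-12, 4 set-4(n4600), 5 set-4(dp268), 4 daf-16 and 3 dpy-21 libraries.

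**Figure D1:**
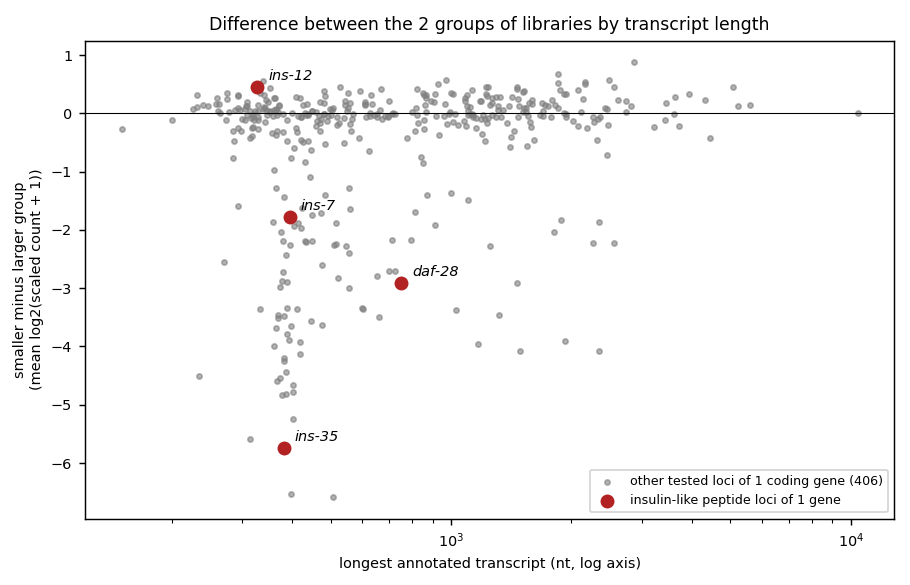
Difference between the smaller and the larger group of libraries (vertical axis, mean log2(scaled count + 1), averaged within genotypes) against the longest annotated transcript (horizontal log axis, nt). Each grey point is one of 406 other tested loci of 1 coding gene and the 4 red points are the ILP loci of 1 gene: ins-35 lay at -5.74 among a column of low loci between 351 and 400 nt, and ins-12 lay at 0.45.

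daf-28, which encodes an agonist ligand made in sensory neurons and known to oppose dauer arrest, was lowest in wild type and high in the eak-7;akt-1 strains. Wild-type libraries 6 to 10 had 4.96, 0, 8.41, 12.5 and 12.3 scaled counts, and eak-7;akt-1 libraries had 1.43, 69.3, 46.4, 53.3 and 57.3. Except for eak-7;akt-1 library 6, a library of the smaller group, the groups did not overlap. daf-12 libraries had 47.7, 0, 28.7, 36.96 and 40.3, set-4(n4600) libraries had 57.0, 0, 42.2, 28.9 and 55.1, and set-4(dp268) libraries had 54.9, 40.2, 59.5, 57.7 and 69.7. The single 0 in the first and in the second of these strains was again a library of the smaller group. daf-16 libraries had 49.1, 25.4, 25.6, 17.1 and 22.9, and dpy-21 libraries had 50.6, 55.4, 40.97, 0 and 58.9. Of the 9 libraries in the smaller group, 5 had at most 1 daf-28 fragment and the other 4 lay within the range of the larger group of their genotype. Over the 26 libraries, means ran from 56.4 ± 10.6 (SD, n = 5) in the set-4(dp268) strain through 56.3 ± 11.7 (n = 3) in eak-7;akt-1, 51.8 ± 9.51 (n = 3) in the dpy-21 strain, 45.8 ± 13.1 (n = 4) in the set-4(n4600) strain, 38.4 ± 7.87 (n = 4) in the daf-12 strain and 29.3 ± 13.8 (n = 4) in the daf-16 strain to 8.63 ± 3.79 (n = 3) in wild type. Each genotype overlapped the next one down except the daf-16 strain and wild type.

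ins-35, an ILP gene known for expression in the intestine and described as coding for an agonist, spanned the widest range of well-counted values. Wild-type libraries 6 to 10 had 38.7, 0, 78.9, 26.7 and 2.46 scaled counts, and eak-7;akt-1 libraries had 8.56, 369, 405, 377 and 2.96. All 9 libraries of the smaller group lay between 0 and 8.56, whatever the genotype, and all 26 of the larger group lay at 26.7 or above. daf-12 libraries had 156, 1.88, 189.9, 178 and 212. set-4(n4600) libraries had 365, 4.26, 392, 388 and 465, and set-4(dp268) libraries had 545, 261, 394, 409 and 445. Both set-4 strains thus overlapped eak-7;akt-1 within the larger group, and the daf-12 strain did not. daf-16 libraries had 73.0, 79.5, 81.2, 51.2 and 0, and dpy-21 libraries had 1.10, 77.9, 101, 1.23 and 109.8, in the range of wild type or a little above it. The means over the 26 libraries fell into steps: 411 ± 102 (n = 5) in the set-4(dp268) strain, 403 ± 43.4 (n = 4) in the set-4(n4600) strain and 384 ± 18.7 (n = 3) in eak-7;akt-1, then 184 ± 23.3 (n = 4) in the daf-12 strain, then 96.2 ± 16.4 (n = 3) in the dpy-21 strain, 71.2 ± 13.8 (n = 4) in the daf-16 strain and 48.1 ± 27.3 (n = 3) in wild type. Neighbors in this order overlapped within each step and not between steps.

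ins-7, an agonist gene of the intestine and nervous system known to take part in a feedback between DAF-2 signaling and DAF-16, was at the edge of detection. The highest value in any library was 14 fragments. In eak-7;akt-1 only library 8 had a fragment, 1 in all, and the other 4 libraries had 0, so the genotype is at or below a floor of 3 fragments per library. Wild-type libraries 6 to 10 had 4.96, 0, 2.103, 6.68 and 0 scaled counts, the 0 values being those of the smaller group. daf-12 libraries had 2.11, 0, 5.13, 1.06 and 1.92, set-4(n4600) libraries had 2.11, 0, 3.84, 5.25 and 0, and set-4(dp268) libraries had 1.22, 1.15, 3.25, 0 and 0, or at most 3 fragments. daf-16 libraries had 5.62, 9.54, 7.69, 5.39 and 0, and dpy-21 libraries had 4.40, 8.66, 2.46, 0 and 9.37. These 2 strains had the highest means, 7.06 ± 1.95 (n = 4) and 6.83 ± 3.80 (n = 3) over the larger group, and no value there overlapped eak-7;akt-1. All neighbors in the order of means overlapped.

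The ins-25/ins-27/ins-29 locus, part of a cluster of ILP genes, was the steadiest of the 5 and did not follow the grouping of libraries. Wild-type libraries had 45.6, 22.4, 37.9, 30.9 and 40.6 scaled counts, and eak-7;akt-1 libraries had 65.6, 92.0, 78.9, 86.6 and 78.0, with no overlap. daf-12 libraries had 58.3, 54.4, 60.6, 50.7 and 72.8. set-4(n4600) libraries had 124, 102, 139, 126 and 136, above every library of every other genotype. set-4(dp268) libraries had 85.4, 89.6, 86.6, 87.7 and 85.5, within the range of eak-7;akt-1. daf-16 libraries had 56.2, 53.0, 59.0, 54.8 and 56.4, and dpy-21 libraries had 59.4, 45.9, 44.2, 42.9 and 70.3. Over all 35 libraries the order of means was 125 ± 14.5 in the set-4(n4600) strain, 87.0 ± 1.77 in the set-4(dp268) strain, 80.2 ± 9.98 in eak-7;akt-1, 59.4 ± 8.43 in the daf-12 strain, 55.9 ± 2.19 in the daf-16 strain, 52.5 ± 11.9 in the dpy-21 strain and 35.5 ± 9.05 in wild type (n = 5 each), and only the first pair of neighbors did not overlap. The median spread within a genotype was 12.4% of the mean, as large as the 12.4% that counting error alone gives at this depth. Reads were not assigned to single genes of the locus, and the sources used here do not say whether counting used strand, so fragments of ILP genes on the opposite strand between them cannot be told apart from it.

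ins-12 had low counts, at most 19 fragments in a library. Wild-type libraries 6 to 10 had 17.8, 17.03, 18.9, 12.5 and 7.39 scaled counts and daf-12 libraries had 9.83, 14.1, 17.5, 14.8 and 18.2, the highest genotypes. eak-7;akt-1 libraries had 11.4, 2.16, 1.16, 18.1 and 9.88 and so spanned almost the whole range of the gene. Means over all 35 libraries were 14.9 ± 3.31 in the daf-12 strain, 14.7 ± 4.78 in wild type, 8.54 ± 7.00 in eak-7;akt-1 and between 7.00 and 8.32 in the remaining 4 genotypes (n = 5 each), and all neighbors in this order overlapped.

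**Figure D2:**
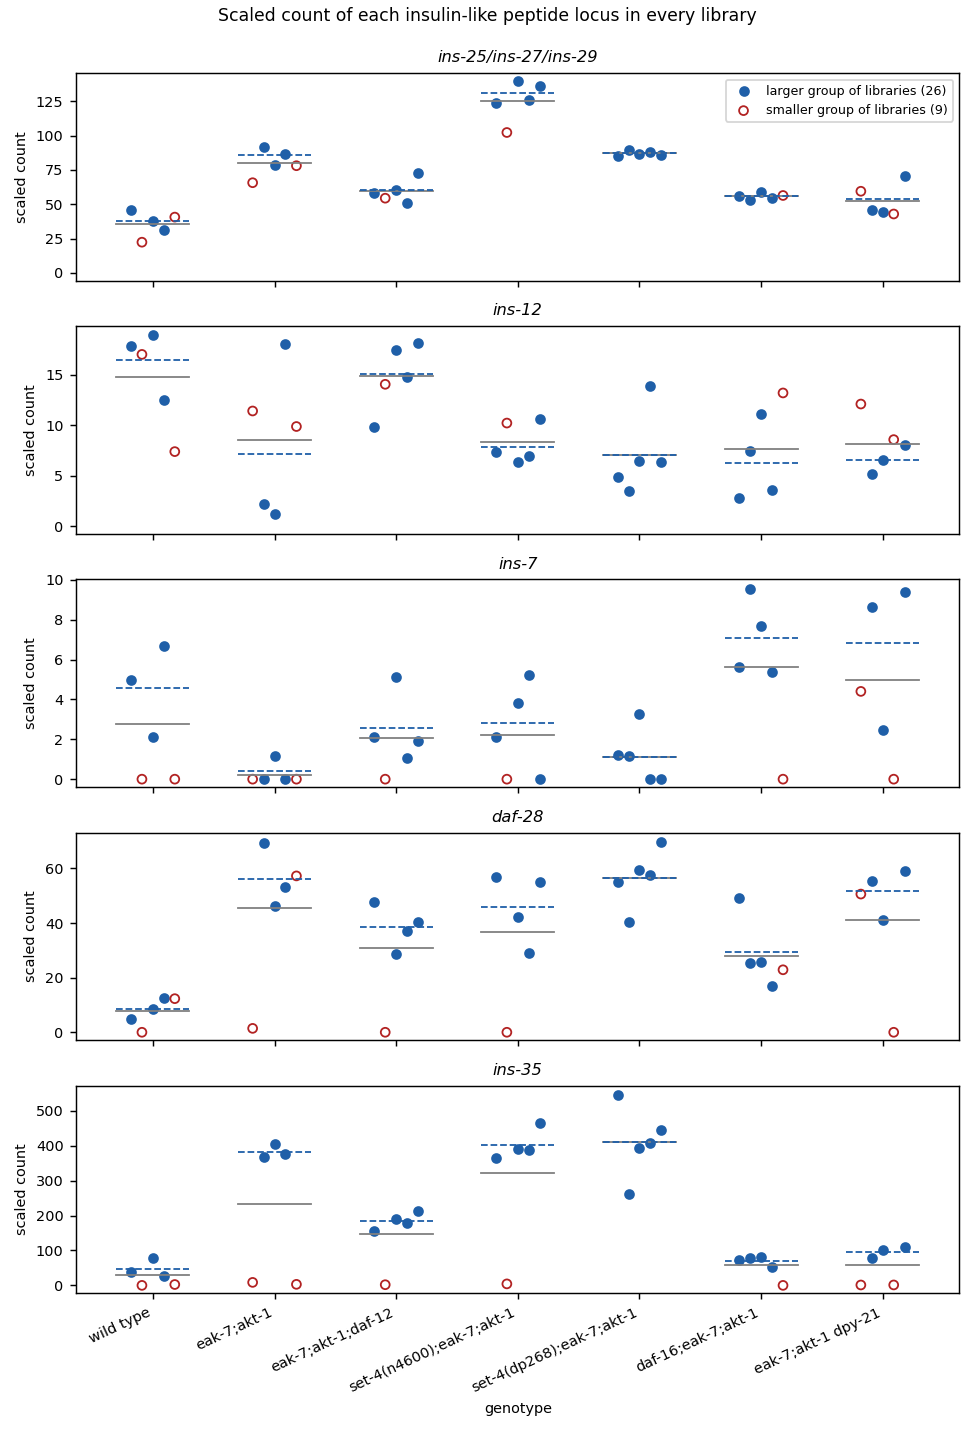
Scaled count (vertical axis, linear) of each ILP locus in every library, by genotype. Filled points are the 26 libraries of the larger group and open points the 9 of the smaller group; the solid line is the mean of 5 libraries and the dashed line the mean of the larger group. All open points of ins-35 lie at or below 8.56, whereas those of the ins-25/ins-27/ins-29 locus lie among or near the filled ones.

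The first comparison asked how ILP expression differs between animals bound for dauer and wild type. It and the next 5 use the same eak-7;akt-1 libraries, so they are not independent of one another. daf-28, ins-35 and the ins-25/ins-27/ins-29 locus were lower in wild type than in eak-7;akt-1, and ins-7 and ins-12 were higher. Over all 35 libraries only the ins-25/ins-27/ins-29 locus passed the test, which was limma on log2(scaled count + 1) and called a locus when its adjusted p was below 0.05 and its fold change 1.5 or more (log2 fold change -1.19, SE 0.15, adjusted p = 5.57e-07). That is 1 of 5 ILP loci, where 13% of the 1101 loci were called. Over the larger group 5 of 5 were called, against 10.4% of all loci, whereas edgeR on the same libraries called 4 and limma over all 35 with the library group as a term called 2. The log2 fold changes there were -3.11 (SE 0.26, adjusted p = 4.70e-09) for ins-35, -2.63 (SE 0.32, adjusted p = 1.28e-06) for daf-28, -1.16 (SE 0.18, adjusted p = 2.24e-05) for the ins-25/ins-27/ins-29 locus, 1.76 (SE 0.56, adjusted p = 0.0385) for ins-12 and 2.01 (SE 0.64, adjusted p = 0.0420) for ins-7. With all libraries the values for ins-35 and daf-28 pointed the same way, -2.56 and -2.26, with SEs of 1.61 and 1.15, and neither passed (adjusted p = 0.350 and 0.221). ins-12 gave 1.09 (adjusted p = 0.112) and ins-7 1.21 (adjusted p = 0.304) over those libraries. The ins-7 call rests on few fragments: the wild-type mean was 1.43 times the floor of eak-7;akt-1 in the larger group. Over all libraries it was 0.817 times that floor, so no increase is assured there. Such ratios leave out the counting error of the mean. The calls of ins-7 and ins-12 there also depended on single libraries. The ins-12 call was lost without any one of wild type 6, 8 or 9 or eak-7;akt-1 7 or 8 (adjusted p up to 0.287), and the ins-7 call without wild type 6 or 9 or eak-7;akt-1 7 or 9 (up to 0.152). Over all libraries the ins-12 call was gained without eak-7;akt-1 9 (adjusted p = 0.0220).

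Loss of daf-12 asked what the steroid branch adds in the eak-7;akt-1 background. ins-35 was lower in the daf-12 strain and ins-12 higher within the larger group, and no ILP locus was called over all libraries. Over the larger group ins-35 changed by -1.06 (SE 0.25, adjusted p = 0.00470), with 155.8 to 212 scaled counts in the daf-12 strain against 369 to 405 in eak-7;akt-1. With all 35 libraries the sign of ins-35 turned, to 0.12 (SE 1.61, adjusted p = 0.984), and 2 of 5 eak-7;akt-1 libraries and 1 of 5 daf-12 libraries belonged to the smaller group. ins-12 changed by 1.63 (SE 0.52, adjusted p = 0.0491) in the larger group and by 1.14 (adjusted p = 0.110) over all libraries. Its call in the larger group was lost without any one of eak-7;akt-1 7 or 8 or daf-12 8, 9 or 10 (adjusted p up to 0.358), and over all libraries it was gained without eak-7;akt-1 9 (log2 fold change 1.497, adjusted p = 0.0224). The ins-25/ins-27/ins-29 locus gave -0.43 (SE 0.15, adjusted p = 0.0692) over all libraries and -0.50 (adjusted p = 0.0559) over the larger group, daf-28 gave -0.54 (adjusted p = 0.360) and ins-7 1.34 (adjusted p = 0.217) over the latter. Thus 0 of 5 ILP loci were called by limma over all libraries, where 9.99% of all loci were, and 0 by edgeR and by DESeq2. An unadjusted p below 0.05 was reached by 2 of 5 there, and by 208 of all 1101 loci. In the larger group 2 of 5 were called, against 7.9%, and 1 by edgeR there or with the library group as a term over all libraries.

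Both set-4 alleles were compared with eak-7;akt-1 to ask which ILP genes respond to this suppressor. The ins-25/ins-27/ins-29 locus was higher in the set-4(n4600) strain in every library, by 0.64 on the log2 scale (SE 0.15, 1.56-fold), but the test over all loci gave an adjusted p of 0.0718 with limma. On the recovered fragments edgeR gave 0.72 (adjusted p = 0.0151) and DESeq2 0.70 (adjusted p = 8.80e-05), both past the thresholds. Leaving out eak-7;akt-1 7 or set-4(n4600) 7 also brought limma past them (adjusted p = 0.0464 and 0.0418), and in the larger group limma gave 0.61 (adjusted p = 0.272) and edgeR 0.73 (adjusted p = 0.0316). Few loci passed by limma in this comparison, 0.182% of all loci over all libraries and 0.0908% over the larger group, and 0 of 5 ILP loci did. An unadjusted p below 0.05 was reached by 1 of 5 over all libraries, where 56 of all 1101 loci reached it. Over the larger group it was reached by 2 of 5, and by 83 of 1101. In the set-4(dp268) strain the locus gave 0.12 (95% interval -0.18 to 0.43) over all libraries and 0.02 (-0.30 to 0.34) over the larger group.

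The remaining ILP genes did not pass the test in either set-4 strain. Over the larger group the log2 fold change of ins-35 was 0.07 (95% interval -0.44 to 0.57) in the set-4(n4600) strain and 0.06 (-0.42 to 0.54) in the set-4(dp268) strain, and that of daf-28 was -0.32 (-0.94 to 0.30) and 0.00 (-0.59 to 0.59). None of these 4 intervals reached below -0.94 or above 0.59. ins-12 gave 0.78 and 0.53 and ins-7 gave 1.27 and 0.50, with wide intervals, and ins-7 had at most 6 fragments in a library of either strain. Over all 35 libraries ins-35 gave 1.20 and 2.45 with an SE of 1.61, where the set-4(dp268) strain had no library in the smaller group and eak-7;akt-1 had 2. limma called 0 of 5 loci in the set-4(dp268) strain over all libraries and over the larger group, where 0.545% and 0.272% of all loci were called. None of the 5 had an unadjusted p below 0.05 in either, where 81 and 80 of all 1101 loci did, and edgeR and DESeq2 called 0. With both alleles pooled 0 of 5 were called by limma, against 0.454% and 0.363% of all loci, and 0 by edgeR and by DESeq2. The ins-25/ins-27/ins-29 locus, at 0.38 (adjusted p = 0.427) over all libraries, was the 1 of 5 with an unadjusted p below 0.05. Of all 1101 loci, 66 over all libraries and 78 over the larger group had such a p.

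The 2 set-4 strains were also compared with each other, although this contrast was chosen only once values were known. The ins-25/ins-27/ins-29 locus was higher in the set-4(n4600) strain than in the set-4(dp268) strain by 0.51 (SE 0.15, adjusted p = 0.353) over all libraries and by 0.59 (SE 0.14, adjusted p = 0.105) over the larger group, both with limma and without overlap of the libraries. DESeq2 gave 0.60 (adjusted p = 0.00189) over all libraries and edgeR 0.68 (adjusted p = 0.00567) over the larger group. By limma 0 of 5 ILP loci passed, against 0.182% of all loci over all libraries and 0.0908% over the larger group, and edgeR over all libraries called 0. An unadjusted p below 0.05 was reached by 1 of 5. Of all 1101 loci, 53 over all libraries and 66 over the larger group reached it. For ins-35 the difference within the larger group was 0.01 (95% interval -0.44 to 0.45).

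The daf-16 strain addressed what the transcription factor DAF-16 contributes. Within the larger group ins-35, daf-28 and the ins-25/ins-27/ins-29 locus were lower than in eak-7;akt-1, and ins-7 was higher. These changes were, on the log2 scale, -2.43 (SE 0.25, adjusted p = 5.91e-08) for ins-35, -1.0001 (SE 0.30, adjusted p = 0.0302) for daf-28 and -0.61 (SE 0.16, adjusted p = 0.0135) for the ins-25/ins-27/ins-29 locus. ins-7 changed by 2.61 (SE 0.60, adjusted p = 0.00410), with a mean 2.21 times the floor (1.68 times over all libraries). So 4 of 5 ILP loci were called, against 10.6% of all loci, whereas edgeR on the same libraries called 2, ins-35 and ins-7, and limma over all 35 with the library group as a term also called 2. Over all 35 libraries 1 of 5 was called, against 10.4%, and it was ins-7 (2.16, SE 0.71, adjusted p = 0.0436). That call was lost without any one of 8 libraries, eak-7;akt-1 6, 7, 9 or 10 or daf-16 6, 7, 8 or 9 (adjusted p of 0.0782 to 0.118). Without the daf-16 and dpy-21 libraries, where it was high, ins-7 would not have passed the filter. Its calls in this strain and the counts of called loci that include it therefore draw on values that let it be tested. Over all libraries ins-35 gave -1.28 (SE 1.61, adjusted p = 0.752), daf-28 -0.15 (SE 1.15, adjusted p = 0.975) and the ins-25/ins-27/ins-29 locus -0.51 (adjusted p = 0.0239), short of the fold threshold. In the larger group daf-28 lost its call without any one of eak-7;akt-1 7 or 9 or daf-16 7, 8 or 9 (adjusted p up to 0.160), and the ins-25/ins-27/ins-29 locus without eak-7;akt-1 7 or 9 (up to 0.0759).

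Loss of dpy-21, a dosage compensation gene, was the last suppressor compared with eak-7;akt-1. Within the larger group ins-35 was lower than in eak-7;akt-1 on the log2 scale (log2 fold change -1.998, SE 0.26, adjusted p = 6.47e-06), where all libraries gave -1.80 (SE 1.61, adjusted p = 0.567). ins-7 was higher in the larger group by 2.44 (SE 0.64, adjusted p = 0.0109), with a mean 2.14 times the floor (1.48 times over all libraries). As in the daf-16 strain, ins-7 was tested only through its values in the daf-16 and dpy-21 libraries. The ins-25/ins-27/ins-29 locus gave -0.70 (SE 0.18, adjusted p = 0.00726) in the larger group and -0.62 (SE 0.15, adjusted p = 0.00515) over all libraries. This last value depended on scaling: rescaling the libraries by median ratios raised the median locus of this comparison by 0.22 and left the locus at -0.35 (adjusted p = 0.105), and edgeR gave -0.32 (adjusted p = 0.168). It also fell below the fold threshold without eak-7;akt-1 7 or dpy-21 7, 8 or 9 (log2 fold change -0.55 to -0.58). daf-28 gave -0.12 (95% interval -0.78 to 0.55), and edgeR over the larger group gave it the opposite sign (0.26). In the larger group 3 of 5 ILP loci were called, against 9.63% of all loci, and over all libraries 1 of 5, against 12.3%, where ins-7 (1.95, adjusted p = 0.0660) passed without dpy-21 9 (adjusted p = 0.0157). Within the larger group the ins-7 call was lost without eak-7;akt-1 7 or 9 or dpy-21 7 or 10 (adjusted p up to 0.0675), and that of the ins-25/ins-27/ins-29 locus without dpy-21 7 or 8 (up to 0.0627).

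Comparison with wild type showed which ILP levels differed from it in the suppressed strains. All of them use the same wild-type libraries. In the daf-12 strain, daf-28 was 4.26-fold higher than in wild type in the larger group (log2 fold change 2.09, SE 0.30, adjusted p = 3.93e-05), ins-35 was 4.14-fold higher (2.05, SE 0.25, adjusted p = 3.95e-06) and the ins-25/ins-27/ins-29 locus 1.58-fold higher (0.66, SE 0.16, adjusted p = 0.0391), whereas ins-12 gave -0.13 (95% interval -1.20 to 0.93). This was 3 of 5 ILP loci, against 1.18% of all loci. Over all libraries it was 1 of 5, against 1.09%, the ins-25/ins-27/ins-29 locus (0.76, SE 0.15, adjusted p = 0.00522), with daf-28 at 1.56 (SE 1.15, adjusted p = 0.663) and ins-35 at 2.68 (SE 1.61, adjusted p = 0.569). In the larger group that locus lost its call without any one of wild type 8 or 9 or daf-12 6, 8 or 10 (adjusted p up to 0.233).

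Both set-4 strains stood further from wild type. In the larger group ins-35 was 9.04-fold higher in the set-4(n4600) strain (log2 fold change 3.18, SE 0.25, adjusted p = 6.35e-10) and 9.01-fold higher in the set-4(dp268) strain (3.17, SE 0.24, adjusted p = 2.32e-10). daf-28 was 4.96-fold (adjusted p = 2.72e-06) and 6.20-fold (adjusted p = 1.56e-07) higher, and the ins-25/ins-27/ins-29 locus 3.41-fold (adjusted p = 1.68e-08) and 2.28-fold (adjusted p = 2.47e-06) higher. Each strain thus had 3 of 5 ILP loci called, against 11.4% of all loci for the set-4(n4600) strain and 12.6% for the set-4(dp268) strain. ins-12 did not pass the test in either, with log2 fold changes of -0.98 (adjusted p = 0.265) and -1.23 (adjusted p = 0.109). Over all libraries the ins-25/ins-27/ins-29 locus was called in both strains (1.82, adjusted p = 3.45e-10, and 1.31, adjusted p = 1.22e-07) and ins-35 in the set-4(dp268) strain alone (5.00, SE 1.61, adjusted p = 0.0323), that is, 1 of 5 against 12% of all loci and 2 of 5 against 13.7%. daf-28 gave 1.74 (adjusted p = 0.377) and 3.16 (adjusted p = 0.0624) over all libraries. The ins-35 call over all libraries was lost without any one of wild type 7 or 10 or set-4(dp268) 6, 8, 9 or 10 (adjusted p of 0.0547 to 0.114), and in the set-4(n4600) strain it was gained without library 7 of that strain (5.01, adjusted p = 0.0332).

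**Figure D3:**
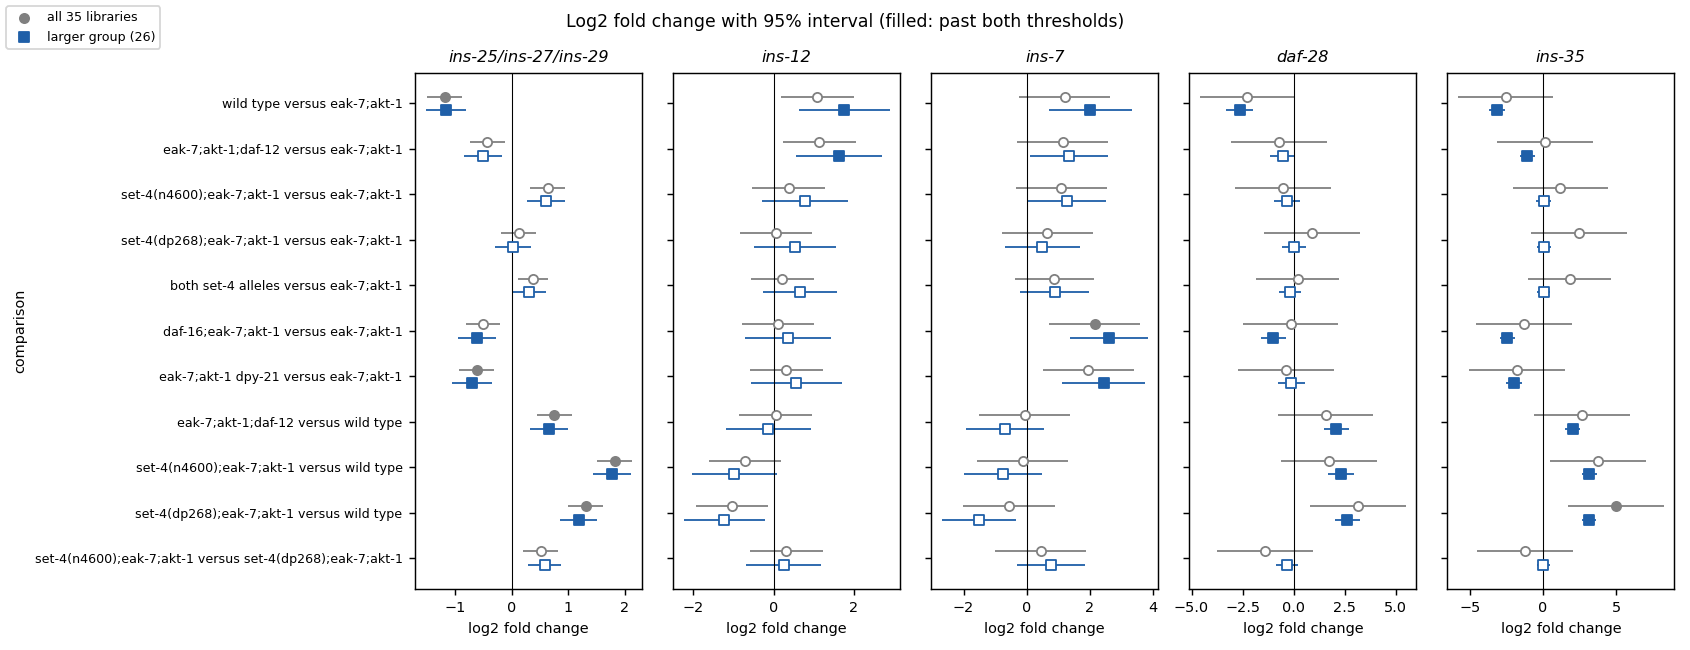
Log2 fold change of log2(scaled count + 1) from limma (horizontal axis) for each comparison (rows), with 95% intervals. Grey circles are the fit to all 35 libraries and blue squares the fit to the 26 of the larger group, and filled symbols passed both thresholds; in the row of wild type, ins-35 is at -2.56 with a wide interval over all libraries and at -3.11 with a narrow one over the larger group.

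The loci also varied together over libraries. In the 26 libraries of the larger group, ins-35 varied with the ins-25/ins-27/ins-29 locus (Pearson r = 0.86, Spearman rho = 0.81, r = 0.84 without the 2 most distant libraries) and with daf-28 (r = 0.71, rho = 0.62). daf-28 and the ins-25/ins-27/ins-29 locus had r = 0.60. ins-7 ran against ins-35 (r = -0.69, rho = -0.68), and ins-12 had no r beyond -0.40 with any other ILP locus. The points share genotypes, and most of the relation was between genotypes: once the mean of each genotype was subtracted, the pair of ins-35 with the ins-25/ins-27/ins-29 locus had r = 0.27, or 0.07 without the 2 most distant libraries, and that of ins-35 with daf-28 had r = 0.10. That of ins-12 with ins-35 had r = 0.30 and rho = 0.50, and with fragments scaled to the library total instead (log2) it had r = 0.37, where the ins-25/ins-27/ins-29 locus had r = 0.44 with ins-7 and -0.36 with daf-28. In the 9 libraries of the smaller group, where ins-35 had at most 6 fragments, its r with the ins-25/ins-27/ins-29 locus was 0.63, falling to 0.30 without 2 libraries, and with daf-28 it was -0.11. All these are descriptions of libraries that share a scaling, with no test.

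**Figure D4:**
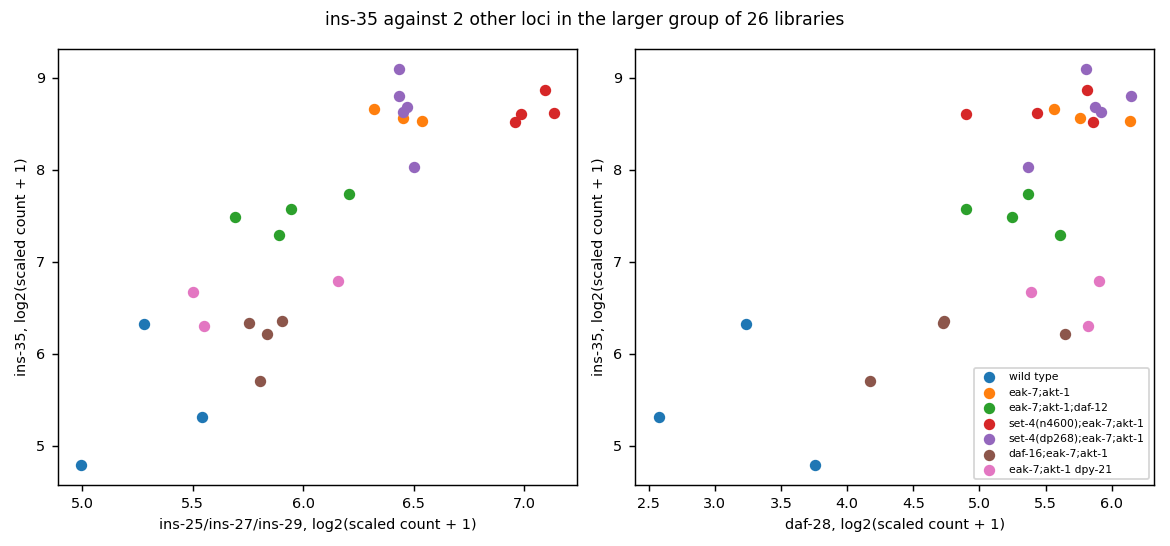
log2(scaled count + 1) of ins-35 (vertical axis) against the ins-25/ins-27/ins-29 locus (left) and daf-28 (right) in the 26 libraries of the larger group, one point per library, colored by genotype. Pearson r is 0.86 on the left and 0.71 on the right; wild type lies at the lower left of both panels, and the set-4(n4600) strain lies to the right of every other genotype in the left panel.

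Other loci shared these patterns, chosen as the 3 with the highest Pearson r over the 26 libraries. ins-35 was most like the locus of K09F5.6 and spp-14 (r = 0.88) and mtl-1, a metallothionein gene (r = 0.87), followed by the ins-25/ins-27/ins-29 locus. daf-28 was most like the same K09F5.6 and spp-14 locus (r = 0.82), F43D2.7 (r = 0.78) and the locus of F53A9.11 and tnt-2 (r = 0.75). In the 9 other libraries the K09F5.6 and spp-14 locus had r = 0.41 with ins-35 and 0.49 with daf-28. No r was obtained there for mtl-1 with ins-35 or for F43D2.7 with daf-28. The ins-25/ins-27/ins-29 locus was most like ins-35, the collagen gene col-36 (r = 0.82) and the locus of Y69H2.14, egas-1 and egas-2 (r = 0.81). In the other libraries col-36 had r = 0.37 with it and the egas-1 and egas-2 locus 0.73. ins-7 was most like R11D1.12 (r = 0.73), R12E2.14 (r = 0.68) and B0310.6 (r = 0.68), with r of -0.14, 0.06 and 0.25 in the other libraries. ins-12 was most like the locus of W02F12.2 and W02F12.8, mlt-8 and F43G6.16, with r of 0.64 to 0.66. Several of these loci were themselves low. Mean scaled counts were 3.159 for the egas-1 and egas-2 locus, 3.057 for R11D1.12, 2.925 for mlt-8 and 3.815 for F43G6.16.

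The remaining 33 ILP genes were at or near 0. Of their 33 loci, 13 had no fragment in any library, 6 had more than 3 fragments in some library, and none passed the filter. Of these 6, ins-28, which lies in the chromosome I cluster with ins-25, ins-27 and ins-29, had 2, 4, 5, 4 and 4 fragments in eak-7;akt-1 libraries 6 to 10 and 1, 2, 0, 2 and 2 in the set-4(n4600) strain (two-sided p = 0.00794 by an exact permutation test of log2(scaled count + 1), which with 5 against 5 libraries can give no smaller p). Totals were 10 fragments in wild type, 19 in eak-7;akt-1, 13 in the daf-12 strain, 7 in the set-4(n4600) strain, 10 in the set-4(dp268) strain, and 12 in each of the daf-16 strain and the dpy-21 strain. The p is unadjusted and 1 of 84 such tests on loci under the filter, and the highest ins-28 value in any library was 5 fragments. In 3 others of the 84 tests the same p was reached. These were ins-14, with 0, 1, 0, 0 and 1 fragments in the dpy-21 strain against 1, 2, 1, 1 and 1 in eak-7;akt-1, and the loci of ftt-2 and hsp-12.6 in the daf-16 strain. ins-9, counted with its neighbor ubc-22, had 9 fragments over the wild-type libraries, 5 over the daf-16 libraries, 1 in each of the set-4 strains and in the dpy-21 strain, and 0 in eak-7;akt-1 and in the daf-12 strain, with no more than 3 in any library, which is what a count of 0 allows.

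Few partners of the ILPs in signaling could be followed. Of 19 loci of the DAF-2 insulin pathway, 1 was tested, that of the 14-3-3 gene par-5, counted with M117.12. It was called in no comparison (adjusted p by limma of 0.137 or more over all libraries whenever eak-7;akt-1 was the reference). Of 11 loci for peptide processing and release, 1 was tested, that of asna-1, an ATPase gene that promotes insulin secretion. This locus also carries the names ZK637.2, ZK637.4, tag-256 and 21ur-14900, so its value is not that of asna-1 alone. It was not called either, with -0.15 (adjusted p = 0.877) in wild type over all libraries and -1.06 (adjusted p = 0.0814) over the larger group. daf-2 itself had at most 1 fragment in a library. No locus of the steroid hormone pathway (8 loci) or of the TGF-beta and cGMP pathways (11 loci) was tested. Of 25 loci of known DAF-16 target genes 3 were tested. mtl-1 was lower than in eak-7;akt-1 within the larger group by -3.22 (SE 0.40, adjusted p = 1.28e-06) in wild type, -3.85 (SE 0.37, adjusted p = 4.61e-08) in the daf-16 strain and -2.76 (SE 0.40, adjusted p = 2.43e-05) in the dpy-21 strain, on the log2 scale, and it gave -1.12 (adjusted p = 0.0598) in the daf-12 strain. Over all 35 libraries mtl-1 passed in none of these 4 comparisons, and in the daf-12 strain its sign turned (0.37). The multigene locus that holds gpd-2 was lower in wild type, the daf-12 strain and the daf-16 strain over all libraries (log2 fold changes of -1.01, -0.88 and -1.17), and mtl-2 was lower in the dpy-21 strain over the larger group (-0.68, adjusted p = 0.0495). Set against wild type over the larger group, mtl-2 was higher in the set-4(n4600) strain by 0.64 (adjusted p = 0.0443) and in the set-4(dp268) strain by 0.99 (adjusted p = 0.000692). In the same order, the gpd-2 locus was higher by 0.92 (adjusted p = 0.000828) and 0.86 (adjusted p = 0.000869). mtl-1 was higher by 3.401 (adjusted p = 2.32e-07) and 3.74 (adjusted p = 2.004e-08), and in the daf-12 strain by 2.0998 (adjusted p = 0.000901). Over all 35 libraries mtl-1 passed, among these strains, only in the set-4(dp268) strain (4.99, adjusted p = 0.01001).

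Fragments from loci on marker lists of neurons, intestine, hypodermis and muscle were present, although 20 of 77 neuron loci and 86 of 158 hypodermis and cuticle loci were at 0. Of these 2 lists only 12 and 10 loci were tested. The neuron list includes the flp and nlp peptide genes, and its egl-21, egl-3 and sbt-1 had at most 1 fragment in a library. Sums and calls of this list are those of genes taken by name, and whether their fragments came from neurons was not tested. Summed scaled counts of 77 neuron loci ran from 1071 to 2735 in the larger group and from 1027 to 1916 in the smaller, those of 6 intestine loci from 93.0 to 277 and from 114 to 194, those of 158 hypodermis and cuticle loci from 499 to 1694 and from 581 to 946, and those of 6 body wall muscle loci from 27.8 to 108 and from 34.1 to 87.9. Adult germ line, sperm, yolk and embryo loci summed to at most 3.17 in any library, with 41 of 46 at 0, and the 4 dauer and L2d marker loci to at most 3.81, with 2 at 0. Some tissue markers were called in the same comparisons. When wild type was set against eak-7;akt-1 over the larger group, 5 of 10 hypodermis and cuticle loci were higher and 1 lower, 2 of 12 neuron loci were higher and 1 lower, 1 of 2 muscle loci was lower and 0 of 4 intestine loci passed, where 10.4% of all loci were called. Against eak-7;akt-1 in the daf-12 strain (7.9% of all loci called), 5 of 10 hypodermis and cuticle loci were higher and 1 lower. There 2 of 12 neuron loci were higher and 2 lower, and 1 of 4 intestine loci was lower. In the daf-16 strain (10.6%), 3 of 10 hypodermis and cuticle loci were higher and 1 lower. Of its 12 neuron loci 2 were higher and 1 lower, and 0 of 4 intestine loci passed. In the dpy-21 strain (9.63%), 4 of 12 neuron loci were lower and 1 higher. There 2 of 10 hypodermis and cuticle loci and 1 of 4 intestine loci were lower. This intestine locus was mtl-2, which is also among the DAF-16 target genes above. Muscle loci were not called in any of these strains against eak-7;akt-1. Against wild type in the set-4(n4600) strain (11.4%), 5 of 10 hypodermis and cuticle loci were lower and 1 higher. There 3 of 12 neuron loci were lower, and 1 of 4 intestine loci and 1 of 2 muscle loci were higher. The intestine locus was again mtl-2. In the set-4(dp268) strain (12.6%), 4 of 10 hypodermis and cuticle loci were lower and 2 higher. Of its 12 neuron loci 3 were lower and 1 higher, and 2 of 4 intestine loci and 1 of 2 muscle loci were higher. mtl-2 was among these intestine loci. In the daf-12 strain against wild type (1.18%) none of these 4 lists had a called locus. In the set-4 strains against eak-7;akt-1 none of these 4 lists had a called locus. Their part in the ILP differences was not tested.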

How the data were processed

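RNA-seq of polyadenylated RNA (100-nt paired-end reads) from 35 libraries was used. The authors trimmed reads, aligned them to WBcel235 with TopHat2 2.0.9 and Bowtie2 2.1.0, and assembled and counted loci with Cufflinks and Cuffdiff (2.1.1 in the submitters' notes). Their deposited signal is a scaled count, that is, fragments divided by a library size factor. Every value was a whole multiple of its library's step within 0.1, so fragments were recovered, and these served only for alternatives and floors. The study describes the 5 libraries of a genotype as biological replicates.

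To be tested, a locus needed 5 scaled counts or more in 5 or more libraries. Scaled counts, as log2(value + 1), were fitted by genotype with limma 3.58.1 (R 4.3.3, with a mean-variance trend), and p-values were adjusted by Benjamini-Hochberg over the 1101 loci that passed. This scale understates changes of low genes. Of these loci, 517 carry several gene names. Fits were repeated on the 26 libraries of the larger group. edgeR 4.0.16 (also on the larger group, which was added after seeing the data, as were the contrast of the set-4 strains and the description by transcript length) and DESeq2 1.42.0 were run on recovered fragments. Exact tests, correlations and figures used Python 3.11.15, scipy 1.17.1, pandas 2.3.3 and numpy 2.4.6. Fits were tested on simulated data, and no result of that test is reported here. Text names the 5 ILP loci, loci of pathway and marker lists where called, and the 3 loci most like each ILP locus, and the 2 tested pathway loci that were not called, ins-28, ins-14, ftt-2, hsp-12.6 and ins-9 were named after their values were seen. Members and lists were chosen with earlier results of these data known. A floor of 3 fragments per library reflects counting error alone, because reads had no molecular identifiers. No sequence was used here.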

Additional observations from a re-analysis of the deposited data

Results flagged for a closer look

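A test for 1 library far from the other 4 of its genotype, on log2(scaled count + 1), was applied to 35 sets of 5 libraries (5 loci in 7 genotypes), of which chance flags about 1 in 20. It marked 9. The value is the gap to the nearest library as a share of the whole range. Of these, 7 were the lowest of their genotype and lay in the smaller group of libraries in daf-28 or ins-35. For daf-28 they were eak-7;akt-1 6 (gap 0.883, 1.43 scaled counts), daf-12 7 (0.873, 0 scaled counts), set-4(n4600) 7 (0.836, 0) and dpy-21 9 (0.913, 0). For ins-35 they were daf-12 7 (0.929, 1.88), set-4(n4600) 7 (0.946, 4.26) and daf-16 10 (0.897, 0). The eighth, daf-16 10 for ins-7 (0.788, 0), is a library of the same group. The ninth was eak-7;akt-1 8 for ins-7, highest of its genotype with a gap of 1 and 1.16 scaled counts, which is 1 fragment where the other 4 libraries had 0.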

How the results depend on the processing

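Of 594 log2 fold changes of ILP loci under alternatives other than leaving out a library, 504 kept direction and side of the thresholds, 50 newly passed, 11 no longer passed and 29 reversed; with 1 library left out, 512 of 575 kept both, 6 newly passed, 18 no longer passed and 39 reversed. Unless a value shows it, the cause was not tested. ILP loci called, against wild type or eak-7;akt-1 (EA), moved as follows. For the larger group the counts were 5 for wild type v EA, 2 for daf-12 v EA, 4 for daf-16 v EA, 3 for dpy-21 v EA, 3 for daf-12 v wild type and 3 for set-4(n4600) v wild type. With library group as a term they were 2, 1, 2, 3, 2 and 2 in the same order, and with edgeR on the larger group 4, 1, 2, 2, 3 and 3, with 1 for set-4(n4600) v EA and 1 between the set-4 strains. DESeq2 gave 2 for wild type v EA, 1 for set-4(n4600) v EA, 4 for set-4(dp268) v wild type, 2 for set-4(n4600) v wild type and 1 between the set-4 strains, and edgeR gave 1 for set-4(n4600) v EA. Without a filter 0 were called for daf-16 v EA, dpy-21 v EA and daf-12 v wild type and 1 for set-4(dp268) v wild type, more loci being tested. A filter of 10 scaled counts gave 0 for daf-16 v EA and 1 for set-4(n4600) v EA, a pseudocount of 0.5 gave 0 for daf-16 v EA, and rescaling gave 0 for dpy-21 v EA and 1 for set-4(n4600) v EA. The filter of 10 scaled counts left ins-7 untested, because no library reached that value for it. Leaving out 1 library, counts ranged from 0 to 1 for daf-16, dpy-21, daf-12 and set-4(n4600) v EA, and from 1 to 2 for set-4(dp268) v wild type, set-4(n4600) v wild type and wild type v EA.

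Same-numbered pairs of libraries had a median r of 0.0345 (range -0.611 to 0.774, 45 of 105 over 0.1), against 0.0157 for 420 pairs with other numbers. Within the larger group the medians were 0.0342 and -0.0144. Whether the numbers pair the libraries is not settled by these values. With a replicate block 1 ILP locus was called for set-4(n4600) v EA, the ins-25/ins-27/ins-29 locus (adjusted p = 0.0471). Counts over all loci differed by over 1.5 times between tools in 2 comparisons: limma, edgeR, DESeq2 and the replicate block called 2, 1, 3 and 3 for set-4(n4600) v EA and 5, 1, 5 and 4 for both alleles v EA. Rescaling shifted the median locus by 0.12 in wild type v EA, 0.14 in daf-12 v EA, 0.22 in dpy-21 v EA and -0.12 in set-4(dp268) v wild type.

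These log2 fold changes reversed. For daf-28 both alleles v EA gave -0.16 in the larger group, -0.64 with the group term and -0.083 with edgeR on the larger group, set-4(dp268) v EA gave -0.20 with the group term, and dpy-21 v EA gave 0.17 with edgeR, 0.15 with DESeq2 and 0.26 with edgeR on the larger group. For ins-12 both alleles v EA gave -0.15 with edgeR and -0.15 with DESeq2, set-4(dp268) v EA gave -0.31, -0.32, -0.091 and -0.056 and daf-16 v EA -0.036, -0.045, -0.044 and -0.0050 with edgeR, DESeq2, edgeR on the larger group and a pseudocount of 5, and daf-12 v wild type gave -0.0039, -0.13 and -0.13 with edgeR, the larger group and edgeR on it. For ins-35 daf-12 v EA gave -0.52 with edgeR, -0.48 with DESeq2, -1.06 in the larger group, -1.01 with the group term and -0.92 with edgeR on the larger group, and the set-4 strains gave 0.0052 in the larger group and 0.068 with edgeR on it. For ins-7 daf-12 v wild type gave 0.023 with a pseudocount of 0.5 and set-4(dp268) v EA -0.039 with the group term. With 1 library left out, ranges crossed 0 for daf-28 (both alleles v EA -0.72 to 0.74, daf-16 v EA -1.06 to 0.15, dpy-21 v EA -1.27 to 0.78, daf-12 v EA -1.61 to 0.36, set-4(dp268) v EA -0.010 to 1.20, set-4(n4600) v EA -1.43 to 0.58), ins-12 (both alleles v EA -0.21 to 0.57, daf-16 v EA -0.32 to 0.46, dpy-21 v EA -0.11 to 0.68, daf-12 v wild type -0.16 to 0.18, set-4(dp268) v EA -0.37 to 0.41, set-4(n4600) v EA -0.052 to 0.73), ins-35 (daf-12 v EA -0.93 to 1.32, between the set-4 strains -1.61 to 0.0052) and ins-7 (daf-12 v wild type -0.42 to 0.32, set-4(n4600) v wild type -0.48 to 0.26). Depth limits ins-7 and ins-12 most, at no more than 14 and 19 fragments in a library.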
